A study of Homo sapiens with 9 samples.

Results

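The peaks described here lie in the alpha-satellite centromere models of the 22 autosomes. They were chosen by position alone: a peak was a member if its summit fell within one of 22 spans of the human assembly GRCh38, which add up to 56.7 Mb. Members numbered 3411 of the 37375 peaks in 5 lists, 1445 of 3128 in the thrombin pulldown lists and 1966 of 34247 in the KAS list. The cells were HL-60, an established human promyelocytic leukaemia line, labelled as differentiated, and the DNA came from neutrophil extracellular traps (NETs), the chromatin that such cells release. For the 4 pulldown libraries, traps were induced with 500 nM phorbol myristate acetate for 4 h, biotinylated alpha thrombin was added at 1 µM for 1 h, the layer was fixed with formaldehyde, and sonicated DNA was captured on streptavidin beads. The 1 KAS library was made after 4 h of induction, with no dose of its own stated and no thrombin named, from cells given 5 mM N3-kethoxal for 10 min. N3-kethoxal labels unpaired guanines, so that single-stranded DNA can be captured. The labels also list 4 input libraries, one for each pulldown, and these were not analysed here. Nothing in the labels says that the pulldown replicates were separate cultures, so the spread between them may be technical.

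Human centromeres are built on alpha satellite, an AT-rich repeat whose monomers are arranged head to tail and grouped into higher-order units that repeat over very long stretches. The kinetochore assembles on part of each array, on nucleosomes that hold the histone variant CENP-A, and the protein CENP-B binds a short motif found in many monomers. In GRCh38 these arrays are filled with model sequences that stand for the repeats of each chromosome but not for their true order, and short reads can match many copies. A position in a model is therefore a label for a kind of repeat rather than a place on a real chromosome. The series title concerns a different repeat, tandem copies of ATTCC. No bases are printed, because no genome sequence was used, and so the label "alpha satellite" rests on position.

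Annotation was checked instead. The RefSeq table of GRCh38.p14, which has the same chromosome coordinates, placed 30 genes in 3 of the 22 spans, and 2 of them were protein-coding. The span of chromosome 20 held 22 of the 30, between 25611153 and 26251588, so its first stretch is annotated as genes. The other 2 spans were those of chromosomes 3 and 14, with 1 and 7 genes. No pulldown member overlapped a gene. A total of 3 KAS members did, all in non-coding genes of chromosome 20: ZNF337-AS1 with a fold of 4.66, LOC100134868 with 5.98 and FAM182A with 4.21.

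Centromere models held a large part of every pulldown list. Replicates 1, 2, 3 and 4 had 471, 205, 348 and 421 members, which were 53.2%, 36.0%, 44.1% and 47.7% of their lists, a mean of 45.2% ± 7.22 (SD, n = 4). Replicate 2, the shortest list, had the fewest members and the lowest share. In the KAS list the share was 5.74% (exact 95% interval 5.50 to 5.99, counting error only). With 1 KAS library the 2 assays were not compared by a test.

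Per Mb of model the pulldown lists held 8.31, 3.62, 6.14 and 7.43 peaks in replicates 1 to 4. In the flanks, taken as the 5 Mb on either side of each span, they held 1.30, 1.22, 1.25 and 1.35 peaks per Mb. The KAS list held 34.7 peaks per Mb of model and 16.2 per Mb of flank. Flank lengths include runs of unknown bases, so densities there are lower bounds. Everything outside models and flanks is called elsewhere below, and it includes chromosomes X and Y, for which no span was set.

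Few pulldown peaks of the models shared a base with a KAS peak, although each assay had many peaks there. Positions in a model are labels for kinds of repeat, so low overlap there does not place the assays apart on a chromosome. Of the pulldown members, 7.01%, 6.83%, 8.91% and 9.03% shared at least 1 base with a KAS peak in replicates 1 to 4, a mean of 7.94% ± 1.19 (SD, n = 4). In the flanks the same share was 88.8%, 87.3%, 89.1% and 90.5%, a mean of 88.9% ± 1.32 (SD, n = 4). Elsewhere it was 91.4% ± 1.40 (SD, n = 4). The groups did not overlap: the highest model value was 9.03% and the lowest value of the flanks was 87.3%. Within each list the model share was below that of all other peaks, with a mean difference of -81.8 ± 0.750 percentage points (exact sign-flip permutation test over the lists, two-sided p = 0.13, lower in 4 of 4 lists). With 4 lists 0.13 is the smallest p this test can give, so it cannot pass 0.05, here or below. The comparison within lists of KAS overlap, and that of overlap between pulldowns below, were added after the data had been seen.

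**Figure D1:**
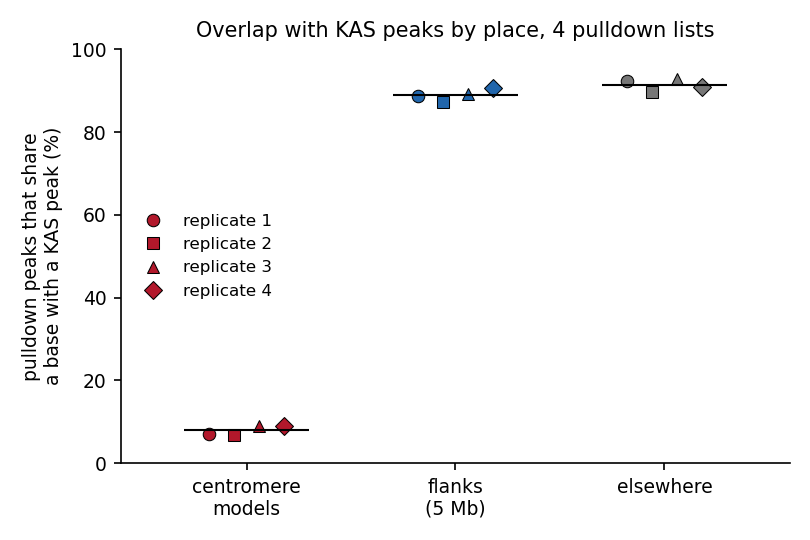
Percent of pulldown peaks that share at least 1 base with a KAS peak, by place. Each symbol is 1 of the 4 pulldown lists and the line is their mean. Model values lie between 6.83% and 9.03%, and those of the flanks between 87.3% and 90.5%.

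Widths and KAS coverage were measured beside this difference. Model peaks were narrower than others, so the comparison was repeated on pulldown peaks of 400 to 600 bases. There the model share in a KAS peak was 10.8%, 10.3%, 6.37% and 6.25% in replicates 1 to 4, and the flank share was 92.3%, 94.2%, 83.0% and 82.2%. KAS peaks covered 0.923% of the bases of the models and 0.768% of those of the flanks. When the 50% of KAS peaks with lower fold were left out, the difference was -39.9 percentage points instead of -81.8. Fewer KAS peaks can only lower each share. For model regions merged across lists, described below, the share also fell, from 6.96% to 3.48%. Mapping of repeated reads, which could act differently on the assays, was not tested.

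The difference was present right at the edges of the spans. Within 0.1 Mb inside an edge, replicates 1 to 4 had 40, 12, 33 and 29 peaks, of which 6, 1, 4 and 4 were in a KAS peak. Within 0.1 Mb outside an edge they had 39, 30, 23 and 32 peaks, of which 24, 21, 15 and 20 were. In every list the share in a KAS peak was thus higher just outside the spans than just inside them, and this was not tested.

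The pulldown peaks were next merged across lists where they shared at least 1 base, which gave 1652 regions, 1035 of them in the models. A KAS peak overlapped 72 of the 1035 (6.96%, exact 95% interval 5.48 to 8.68), against 34.8% of all merged regions. It was 4.54% where the pulldown summit had to lie in the KAS peak and 3.48% with the 50% of KAS peaks of higher fold. In the flanks 322 of 404 (79.7%) did and elsewhere 181 of 213 (85.0%). The share in the models was 5.91% for regions of 1 list, 9.13% for 2 lists, 5.77% for 3 and 20.0% for 4, the last from 6 of 30 regions with an interval from 7.71 to 38.6. Flank regions of 4 lists were in a KAS peak in 95.1% of cases. A model region had its nearest KAS peak at a median of 8171 bases, with quartiles of 2426 and 19034 bases.

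**Figure D2:**
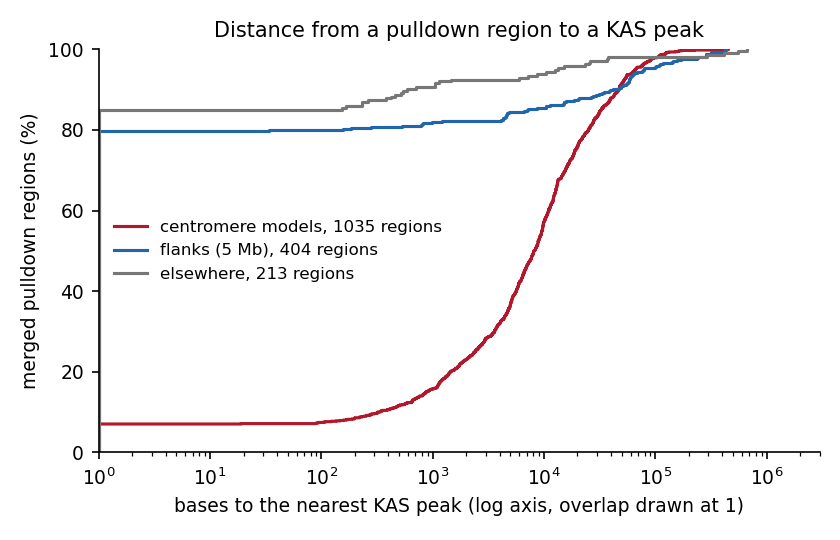
Cumulative percent of merged pulldown regions by distance to the nearest KAS peak, on a log axis with overlap drawn at 1. In the models 6.96% of regions overlap a KAS peak and the median distance is 8171 bases, while 79.7% of flank regions and 85.0% of those elsewhere overlap one.

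Model regions with and without a KAS peak had similar medians. The 72 with one had a median width of 358 bases and a median mean fold of 4.09, and the 963 without had 345 bases and 4.12. Fold here and below is the authors' enrichment of a peak over the background of their peak caller. Folds were not scaled between lists, so only comparisons within a list are safe. Median fold outside the models was itself 2.77, 2.45, 3.61 and 3.40 in replicates 1 to 4. Folds of a region set side by side across lists, and their means and SDs, are descriptions. The 72 were spread over 16 chromosomes, and 44 of them (61.1%, exact 95% interval 48.9 to 72.4) were held by a single list, against 72.0% of all model regions. At least 3 lists held 9 of the 72 (12.5%, interval 5.88 to 22.4), against 7.92% of all model regions, and 3 of the 9 lay within 66.6 kb on chromosome 5.

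The 3 regions on chromosome 5, each held by all 4 lists, lay at 49600806 to 49603024, at 49656419 to 49661905 and at 49665878 to 49667405, and the first and second were among the 5 widest of the models, at 2219 and 5487 bases. At the first, folds were 1.78, 1.50, 2.20 and 1.66 in replicates 1 to 4. At the second, folds were 1.72, 1.86, 1.98 and 1.49. The last, named after its values were seen, had folds of 1.98, 1.57, 2.03 and 1.71. The pileup, the read height at a peak's summit, was between 196 and 200 at the first and second in every list. A value of 200 was the highest in each list and was shared by 16, 16, 15 and 15 peaks in replicates 1 to 4, so heights there look capped, and neither these heights nor the folds can be read as levels. The nearest gene to those 2 was EMB, which encodes the membrane protein embigin, 793 kb and 734 kb away.

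Most model regions were held by a single pulldown list. Of the 1035 model regions, 745 (72.0%) were held by 1 list, 208 by 2, 52 by 3 and 30 by 4. Those of at least 3 lists numbered 82, or 7.92% (exact 95% interval 6.35 to 9.74), against 20.0% of all merged regions. In the flanks 157 of 404 (38.9%) were held by at least 3 lists, and elsewhere 91 of 213 (42.7%). The values depend on the number of lists asked for: in the models 28.0% were held by at least 2 lists and 2.90% by all 4.

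**Figure D3:**
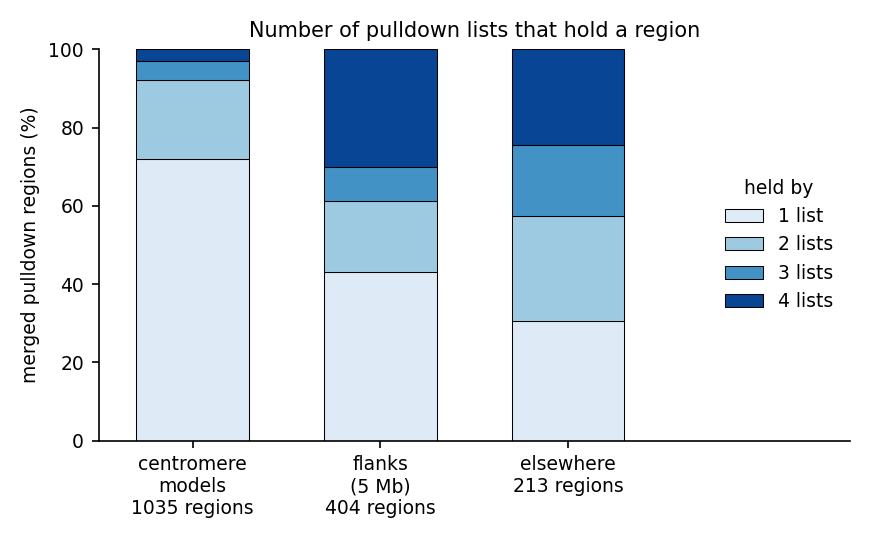
Merged pulldown regions by the number of the 4 lists that hold them, as a percent of the 1035 regions of the models, the 404 of the flanks and the 213 elsewhere. In the models 72.0% are held by 1 list and 2.90% by 4 lists, and in the flanks 43.1% and 30.2%.

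Seen list by list, 31.4%, 53.7%, 62.6% and 53.2% of the members of replicates 1 to 4 overlapped a peak of another pulldown list. For all other peaks these shares were 88.4%, 92.1%, 83.3% and 80.9%. The model share was below the other in 4 of 4 lists, with a mean difference of -35.9 ± 15.8 percentage points (exact sign-flip permutation test, two-sided p = 0.13). Replicate 1, with the most members, had the lowest share. Among peaks of 400 to 600 bases the difference was -19.7 percentage points.

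Agreement also depended on the pair. Replicates 3 and 4 shared 53.4% of the shorter list's members, replicates 1 and 2 shared 38.0%, and the 4 pairs across shared between 19.7% and 31.2%. In the flanks the 6 pairs shared between 55.6% and 88.1%. The lowest was that of replicates 1 and 3, which shared 82.9% when counted from replicate 1, and every other pair shared at least 75.3%. A pattern of replicates 3 and 4 alone was found in 114 model regions, and one of replicates 1 and 2 alone in 34. Members of replicates 1 and 2 had median widths of 270 and 317 bases, and those of replicates 3 and 4 had 419 and 433. The labels give no batch, and the part of library preparation in this grouping was not tested.

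Where 2 lists shared a region, their summits were often close, in the models and outside them. In the 114 regions of replicates 3 and 4 alone, the 2 summits lay a median of 22.5 bases apart, and in 69 of them within 30 bases. Over all merged regions of 2 lists the median was 31 bases, and 168 of 338 were within 30 bases, against 116 of 208 in the models. Merged peaks share a base, so narrow peaks limit how far apart summits can lie. The 30 regions of 4 lists had a median spread of 82.5 bases between the outermost summits, and 10 of them were within 30 bases. Flank regions of 4 lists spread over a median of 360 bases, but they were wider, at 1559 bases against 503. Folds of shared regions were correlated between lists: Spearman's rho was 0.84 over 184 model regions for replicates 3 and 4 and 0.73 over 76 for replicates 1 and 2. The pairs across gave rho from 0.62 to 0.73, so replicates 1 and 2 did not stand apart by this measure. These correlations are across regions, which are not independent replicates, and are given as a description.

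Members were narrower and of higher fold than other pulldown peaks, at lower read height. Median fold in the models was 3.81, 3.69, 4.21 and 4.12 in replicates 1 to 4, and that of the other peaks was 2.77, 2.45, 3.61 and 3.40. The difference was positive in 4 of 4 lists, at 0.896 ± 0.291 (SD, n = 4; exact sign-flip permutation test, two-sided p = 0.13). Median width was 270, 317, 419 and 433 bases in the models and 446, 428, 561 and 570 outside them. It was lower in the models in 4 of 4 lists (mean difference of -141.5 ± 26.7 bases, exact sign-flip permutation test, two-sided p = 0.13). Median pileup was 33, 35, 27 and 29 against 78, 89, 47 and 47, again lower in every list. Pileups are not normalized between libraries, so they were compared only within a list.

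All pulldown peaks with a fold over 10 lay in the models, and nearly all were in replicates 3 and 4. There were 44 of them, 1.41% of all pulldown peaks: 1 in replicate 1, 0 in replicate 2, 20 in replicate 3 and 23 in replicate 4. The threshold of 10 was chosen after the values were seen. Outside the models the highest folds were 7.79, 9.76, 9.74 and 8.81 in replicates 1 to 4. That no peak outside the models passed therefore rests on this choice. The 44 peaks fell in 29 regions on 12 chromosomes, of which 23 regions were held by replicates 3 and 4 and by no other list. Chromosome 18 had 8 of the 29 and chromosome 7 had 4, while they held 64 and 23 of all 1035 model regions. A KAS peak overlapped 6 of the 29 (20.7%, exact 95% interval 7.99 to 39.7), against 6.96% of all model regions, and the difference was not tested.

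**Figure D4:**
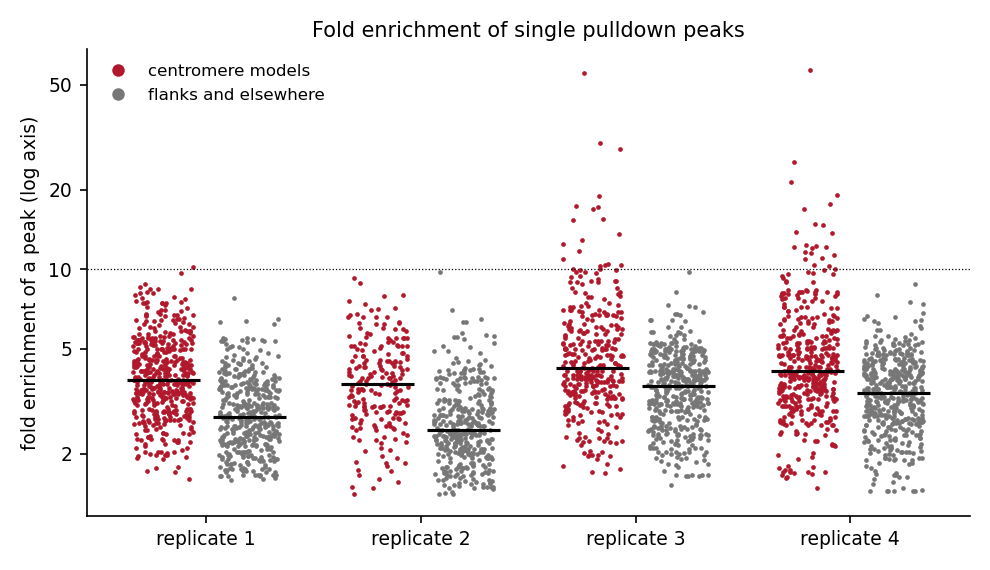
Fold enrichment of each pulldown peak on a log axis, for the models and for all other places, by replicate, with the median as a bar and a dotted line at 10. Peaks over 10 number 1, 0, 20 and 23 in the models of replicates 1 to 4 and 0 outside them, where the highest fold is 9.76.

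The highest fold of each list named the strongest members. On chromosome 20 at 27799859 to 27800331 replicates 3 and 4 had folds of 55.1 and 56.6, replicate 2 had 6.27, and replicate 1 listed no peak. The nearest gene, the pseudogene FRG1CP, was 780 kb away. For the first region of chromosome 18, at 19096223 to 19096739, replicates 1, 3 and 4 gave folds of 5.69, 30.2 and 19.2, and replicate 2 listed no peak. Its summits in the 3 lists lay within 14 bases of each other, and it overlapped a KAS peak with a fold of 10.1. At both places the folds of replicates 3 and 4 were above those of the other lists, where these listed a peak.

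Other places of high fold had the same pattern. In replicates 3 and 4 the fold was 28.6 and 25.4 on chromosome 18 at 18930281 to 18930624, named after its values were seen, and the other lists had no peak. It was 15.6 and 21.4 for the first region of chromosome 12, at 36168533 to 36168804. For that of chromosome 7, at 59204918 to 59205177, it was 15.3 and 16.9, and a KAS peak overlapped. In each of these the 2 summits were 15 to 18 bases apart. On chromosome 16 the first region, at 36659152 to 36659398, had 7.71 and 12.3, and on chromosome 2, at 92429200 to 92429432, folds were 10.3 and 8.23. Spans 2, 7, 12 and 16 had no region of 3 or more lists, so their leading regions rested on replicates 3 and 4.

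Replicates 1 and 2 led at other places. On chromosome 10 at 41124462 to 41125564, the region of 4 lists with the highest mean fold in the models, folds were 10.2, 7.91, 5.15 and 5.37 in replicates 1 to 4. The 4 summits lay within 7 bases, and the nearest KAS peak was 12024 bases away. The first region of chromosome 17, at 24150563 to 24151073, had folds of 5.24, 4.46, 2.30 and 1.91, so that replicates 1 and 2 were both above 3 and 4. It was one of the 6 regions of 4 lists in a KAS peak, with a KAS fold of 8.82. On chromosome 19 at 24929891 to 24930345 the fold was 6.48 and 5.54 in replicates 1 and 2 and 3.85 and 3.61 in replicates 3 and 4. The highest fold in replicate 2, 9.26, belonged to a region of that list alone, on chromosome 5 at 48068263 to 48068468.

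Several regions had much the same fold in all 4 lists, taken as listed and without scaling between lists. The first of chromosome 22, at 14775657 to 14776146, had a mean fold of 5.21 ± 0.405 (SD, n = 4) and summits within 13 bases. Another on that chromosome, at 14416256 to 14416726, had folds of 3.94, 4.26, 3.42 and 3.75, a mean of 3.84 ± 0.354 (SD, n = 4). Chromosome 3 at 90868610 to 90869549 had 4.07, 4.71, 3.83 and 4.02, although its summits were spread over 569 bases. Chromosome 5 at 48732037 to 48732469 had 2.63, 3.03, 2.67 and 2.98, and chromosome 21 at 12792918 to 12793435 had 2.89, 2.74, 2.22 and 2.58. The nearest KAS peaks to these last 2 were 39216 and 9796 bases away.

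Chromosome 4 at 51160965 to 51161501 came closest to a KAS peak without touching it, at 93 bases, among the leading regions of the spans. Its 4 summits lay within 8 bases of each other. Chromosome 20 at 26522943 to 26523655, the first of its span, was 322 bases from one, and its folds were 3.73, 2.85, 3.26 and 2.18. On chromosome 14 the first region, at 16102831 to 16103735, overlapped a KAS peak with a fold of 6.01, and its own folds were 3.18, 4.15, 4.72 and 3.66. Its nearest annotated gene, 45.2 kb away, was the pseudogene RNA5-8SP.

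Chromosome 13 had 2 of the 10 leading regions, at 17772573 to 17773012 and at 17413223 to 17413683. Folds were 3.76, 4.89, 3.67 and 5.27 at the first and 3.54, 2.81, 4.41 and 3.72 at the second. The last of the 10, on chromosome 19 at 24958974 to 24959480, had 3.37, 3.05, 4.13 and 3.87. In the second and the last, replicates 3 and 4 were both above 1 and 2, and in the first the pairs overlapped. Median fold outside the models was also higher in replicates 3 and 4 than in 1 and 2, so this order does not set those regions apart.

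The remaining spans were led by weaker regions or by regions of 3 lists. On chromosome 1 at 124741077 to 124741571 all 4 lists had a peak, with folds of 1.95, 1.66, 2.21 and 1.71. The region on chromosome 15, at 19213229 to 19213853, was held by replicates 2, 3 and 4 with 7.56, 7.85 and 6.41. Replicates 1, 2 and 4 held the leading region of chromosome 11, at 51959415 to 51959908, with folds of 3.79, 6.59 and 4.72. They also held that of chromosome 6, at 58764895 to 58765389, with 4.06, 2.54 and 3.07. Chromosomes 8 and 9 had no region that 2 lists shared.

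The 3 other wide regions had no KAS peak. For the one on chromosome 10, at 40412688 to 40414716, replicates 1, 3 and 4 gave folds of 7.17, 2.23 and 3.46, and its nearest KAS peak was 66951 bases away. Replicates 3 and 4 alone held the one on chromosome 13 at 17401561 to 17403684, with 4.40 and 4.20, and the one on chromosome 21 at 12266117 to 12268147, with 4.46 and 3.97.

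Chromosomes differed in how densely their models were covered, and the 4 lists ranked them alike. Chromosome 10, from 39.7 to 41.6 Mb, had the highest mean pulldown density, 17.9 ± 8.83 peaks per Mb (SD, n = 4), from 59, 23, 27 and 27 peaks in replicates 1 to 4. Replicate 1 stood above the other 3 lists there. Chromosome 22 followed with 13.8 ± 3.93 and chromosome 13 with 12.0 ± 2.18 (SD, n = 4). Chromosome 13 had 30, 19, 26 and 26 peaks in 2.1 Mb, against the 1.9 Mb of chromosome 10, so chromosome 10 was the denser in every list. Chromosome 22, with 40, 22, 24 and 35 peaks in 2.2 Mb, was denser than chromosome 10 in replicate 4 only. The order of these 3 was not tested. The lowest were chromosome 15 with 0.865 ± 0.192, chromosome 16 with 1.00 ± 0.913 and chromosome 8 with 1.18 ± 0.662 (SD, n = 4). Pairs of lists gave Spearman's rho from 0.77 to 0.94 across the 22 spans.

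The KAS order was another one. Chromosome 4 had 66.0 KAS peaks per Mb of model, chromosome 20 had 60.3 and chromosome 2 had 53.2, and the lowest were chromosome 17 with 6.58, chromosome 16 with 13 and chromosome 10 with 15.3. Chromosome 10 was thus first for mean pulldown density and among the 3 lowest for KAS. Across the 22 spans the mean pulldown density and the KAS density had a Spearman's rho of 0.34 and a Pearson's r of 0.23, given as a description, since all spans share the same 5 libraries.

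**Figure D5:**
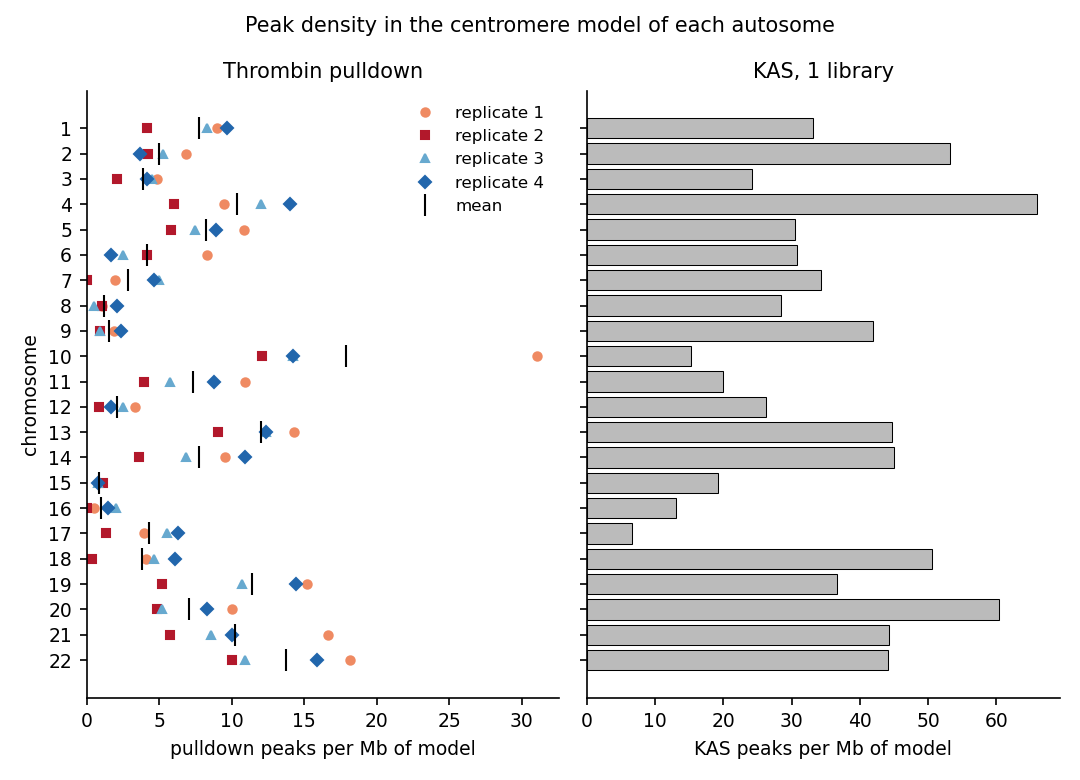
Peaks per Mb in the model of each autosome, for the 4 pulldown lists (symbols, with the mean as a bar) on the left and the KAS library on the right. Chromosome 10 has the highest mean pulldown density, 17.9 per Mb, and a KAS density of 15.3 per Mb; chromosome 4 has the highest KAS density, 66.0 per Mb.

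Recurrence was highest on chromosome 17, the chromosome with the lowest KAS density. There 10 of 30 model regions (33.3%, exact 95% interval 17.3 to 52.8) were held by at least 3 lists, against 7.92% over all models and 20.0% over all merged regions. Next came chromosome 15 with 1 of 7 (14.3%, interval 0.361 to 57.9) and chromosome 4 with 7 of 54 (13%, interval 5.37 to 24.9). Chromosome 22 had 10 of 83 (12.0%, interval 5.93 to 21.0) and chromosome 13 had 8 of 71 (11.3%, interval 4.99 to 21.0). The interval of chromosome 17 overlaps each of these, and chromosome 17 was named because it was the highest. Regions from the same libraries are not independent, and no difference between chromosomes was tested. On chromosomes 2, 7, 8, 9, 12 and 16 the count was 0, of 32, 23, 9, 13, 16 and 5 regions.

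KAS peaks in the models had higher folds than KAS peaks outside them. Their median fold was 6.67 against 5.42, their median pileup 16 against 10, and their median width 233 bases against 249. A fold over 10 was reached by 282 of 1966 (14.3%), against 1.94% of all KAS peaks and 381 (1.18%) of those outside the models. The models thus held 42.5% of all KAS peaks with a fold over 10, with 5.74% of the list. Of the 282, 8 (2.84%, exact 95% interval 1.23 to 5.51) touched a pulldown peak, a share close to the 3.97% of all KAS members. These values come from 1 library, have no replicate check and were not tested.

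The 10 KAS members of highest fold overlapped no pulldown peak, which is too few to set against the share of 3.97%. The first was on chromosome 20 at 26662759 to 26663089 with a fold of 25.6 and a pileup of 65. Chromosome 3 at 92422172 to 92422455 also had 25.6, and chromosome 18 at 17935170 to 17935635 had 25.5. The others were on chromosome 20 at 27941679 to 27942083 (24.8), on chromosome 4 at 50339467 to 50339788 (24.1) and at 51311683 to 51311945 (22.2), on chromosome 18 at 18819954 to 18820262 (23.7) and at 16131400 to 16131741 (21.9), on chromosome 15 at 18710794 to 18711120 (21.9) and on chromosome 10 at 41483192 to 41483457 (21.7). Chromosomes 18 and 20 held 5 of these 10, and they held 273 and 175 of all 1966 KAS members. The highest pulldown fold of replicates 3 and 4 was on chromosome 20, at another position, and a link between the assays was not tested. In replicates 1 and 2 the highest was on chromosomes 10 and 5.

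Of all 1966 KAS members, 78 (3.97%, exact 95% interval 3.15 to 4.93) shared a base with a pulldown peak, against 2.13% of all KAS peaks. In the flanks 429 of 3558 KAS peaks (12.1%) did, and elsewhere 221 of 28723 (0.769%). Median fold was 5.19 for these 78 and 6.68 for the other 1888, while median pileup was 33 and 16. Of the 78, 14 lay in pulldown regions of at least 3 lists. Beside those of chromosomes 18, 17 and 14 given above, the strongest of these 14 were a pair on chromosome 22, at 12982023 to 12983733 with a fold of 5.92 and at 12984279 to 12984541 with 4.74. Both touched the pulldown region of 4 lists at 12983174 to 12984533.

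Spacing between members of 1 list was measured in the models only, with no reference for the density of peaks. Neighbouring summits on a chromosome were a median of 40.9, 78.4, 64.6 and 57.9 kb apart in replicates 1 to 4, and 15.0 kb in the KAS list. Under 2 kb lay 5.12%, 2.70%, 3.07% and 2.76% of the pulldown intervals and 9.05% of the KAS intervals. Most intervals were thus over 2 kb, but whether peaks lay closer together than their density implies was not tested.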

How the data were processed

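Deposited peak lists of 4 pulldown libraries and 1 KAS library were used, each in the layout that MACS2 writes, with groups and replicate numbers from the titles. Per the submitters' processing notes, the build was GRCh38.p13 and the tools included MACS2 2.2.7.1 and BWA, along with bedtools 2.30.0, Picard 2.27.4 and SAMtools 1.6. Settings and the control used are not given in the sources used here. The authors' pileup signal is a read height, never over 200. Significance is deposited as −log10 of p and of q, and the smallest −log10 q was 2.00 to 2.01 across lists. Enrichment is the authors' fold, a ratio to the local background of the caller. The first peak carried the number 259, 195, 249 or 257 in the pulldown lists and 1951 in the KAS list, and peaks numbered below these were not analysed here, so shares of a list are of the peaks analysed and the lists may be incomplete. Depth is unknown, since the lists hold no read totals, so intervals reflect counting error alone.

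A peak was placed by its summit and a merged region by the summit of its peak of highest fold. Members, flanks, lists and settings were chosen with earlier results of these data known. Named items were, per span, the region ranked highest on list number, then on mean fold (at least 2 lists), the 10 ranked highest over all spans, the peak of highest fold per list, the 5 widest regions, the 10 strongest KAS peaks and the 5 strongest in regions of at least 3 lists. Within-list differences were tested by an exact sign-flip permutation test over lists, two-sided. Shares carry exact (Clopper-Pearson) 95% intervals. No 2 pulldown lists had an identical peak. Python 3.11.15, NumPy 2.4.6, pandas 2.3.3, SciPy 1.17.1 and matplotlib 3.10.9 were used, bedtools 2.31.1 served to check the merged regions and their KAS overlaps, and the functions were tested on simulated data. A planned test of motifs needs a genome sequence and was not run.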

Additional observations from a re-analysis of the deposited data

Results flagged for a closer look

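A list far from the other 3 was looked for with Dixon's test in 8 measures of the model peaks and in the folds of the 17 named regions held by 4 lists. Of these 25 sets, 1 passed, and chance gives about 1.25. On chromosome 4 at 51160965 to 51161501 the fold was 4.23 in replicate 2, against 6.21, 6.26 and 6.52 in replicates 1, 3 and 4. Replicate 2 also had the lowest median fold in the models and outside them, and folds were not scaled between lists.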

How the results depend on the processing

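None of the 34 alternatives of the 4 differences within lists (fold, width, KAS overlap, overlap between pulldowns) changed direction, though no p could pass 0.05 with 4 lists or, at 0.25 or above, with 3. Many of the 34 could not have changed it. All 4 lists had the same sign in each difference, so leaving out a list could not reverse it. Placing peaks by any base kept the same members, so it could not either. Placing peaks by any base or by the whole peak gave the same members. The mean share of pulldown peaks in the models rose to 59.4% among the 50% of peaks of higher fold. The KAS share was 8.32% with that rule, 5.43% with spans shortened by 0.1 Mb at both ends, 6.10% with spans lengthened, and 4.78% without the 3 spans that hold annotated genes. Model regions held by at least 3 lists came to 2.64% among peaks of higher fold, and the share was 28.0% at 2 lists and 2.90% at 4. Leaving out a replicate and asking for 2 of 3 lists gave 16.6% to 29.9%. Overlap of model regions with KAS was 5.02% when 50% of the shorter had to be shared, 4.54% by the pulldown summit and 3.48% with the 50% of KAS peaks of higher fold. Overlap of KAS members with pulldown peaks was 2.80% at 50% of the shorter, 2.75% by the KAS summit, and 3.00% to 3.76% when a replicate was left out. By definition, asking for more lists can only lower a share. A stricter overlap rule, or fewer peaks left to overlap with, can likewise only lower an overlap share. The cause of the other shifts was not tested. Leaving out spans with genes, the width class of 400 to 600 bases, and the differences in KAS overlap and in overlap between pulldowns, with all their alternatives, were chosen after seeing the data. The motif alternatives were not run. The 4 differences within lists paired model peaks with the other peaks of the same list. Between libraries, no paired analysis was possible because the replicate numbers are shared only with the input libraries, which were not analysed here. Unknown depth limits what an unlisted peak means: it was not detected, not shown to be absent.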
